A study of Saccharomyces cerevisiae with 57 samples.

Results

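The promoters of 33 Saccharomyces cerevisiae genes were examined in ChEC-seq data of the general regulatory factors Abf1, Rap1 and Reb1. The genes comprised the 7 alpha ring and 7 beta ring subunits of the core particle of the proteasome, its 6 ATPases, 12 of its non-ATPase subunits, and RPN4, which encodes no subunit but the transcription factor of these genes. They were taken by name from the sacCer3 annotation, without use of any measured value, and are 33 of the 5987 genes whose 500 bp upstream of the start codon were counted. In ChEC-seq, a factor is fused to micrococcal nuclease (MNase), cells are permeabilized, and added calcium lets the fusion cut DNA close to where it sits, so that the ends of short fragments mark the cuts. The level of a promoter was the number of fragment ends in its window per 1000000 ends mapped to the nuclear genome outside the rDNA, and is given below as EPM.

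All strains were made in W1588-4C, which is congenic to W303-1A apart from RAD5+. In the 3 factor strains MNase with a 3FLAG tag was joined to the carboxyl end of Abf1, Rap1 or Reb1 at the gene's own locus (genotypes ABF1-3FLAG-MNase-kanMX6, RAP1-3FLAG-MNase-kanMX6 and REB1-3FLAG-MNase-kanMX6). The control, free MNase, was MNase with a 3FLAG tag and a nuclear localization signal expressed from the REB1 promoter at the URA3 locus. Further strains carried Abf1 or Reb1 joined to MNase through a shorter linker, or Reb1 with MNase at its amino end, the latter from a plasmid under the REB1 promoter in cells whose chromosomal REB1 was deleted. Cells grew in rich medium, and digestion with 2 mM calcium was stopped after 10, 20, 30, 40, 50 or 60 s or after 2.5, 5, 10 or 20 m, as aliquots of a digest. At 30 s each factor had 3 libraries and free MNase had 1, and every other time point and the digests without calcium had 1 library each. The further strains had 1 library at 30 s and 1 at 5 m each.

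The 26S proteasome degrades proteins marked with ubiquitin. A barrel of alpha and beta rings holds the proteolytic sites, and a regulatory particle of ATPases and non-ATPase subunits recognizes, unfolds and feeds in the substrate. In yeast, the subunit genes are transcribed in concert through a shared promoter element, PACE (proteasome-associated control element), which is bound by the zinc finger protein Rpn4, itself a short-lived substrate of the proteasome. Abf1, Rap1 and Reb1 are abundant DNA-binding proteins known for keeping promoters clear of nucleosomes, and Rap1 is best known for its role at ribosomal protein genes and telomeres.

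The DNA of these promoters shared the PACE letters GGTGGCAAA, which on either strand stood in 27 of the 33 windows (81.8%), against 99 of all 5987 windows (1.65%). Each of the 27 had 1 match, starting between 183 and 84 bp upstream of the start codon with a median of 120 bp, in 19 cases on the strand of the gene and in 8 on the other. PRE5, PUP1, RPN8, RPN10, RPN13 and RPN4 had none. Allowing 1 letter of the 9 to differ, a search made after the exact matches were known, found a match in 5 of these 6, all but RPN4, and in 740 of all windows (12.4%). Examples follow with 10 bases on each side, PACE in capitals, read 5′ to 3′ on the strand of the gene. They are shown because Reb1-MNase cut most beside PACE in PRE1, PUP2 and RPT4, as described below, and because RPT6, which also holds PACE, was higher with none of the factors. The sequences are those of the RefSeq genome of the R64 assembly.
PRE1 (chrV:177683-177711, + strand): aaatctttacGGTGGCAAAaaataaagaa
PUP2 (chrVII:999226-999254, - strand): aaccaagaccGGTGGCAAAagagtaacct
RPT4 (chrXV:813802-813830, - strand): aatagtggaaTTTGCCACCgaagggaaag
RPT6 (chrVII:411352-411380, - strand): atgcgagcgaGGTGGCAAAagttgtaata

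The letters of the factors were also present. TTACCCG, the core of the known Reb1 motif, occurred on either strand in 10 of the 33 windows (30.3%) and in 604 of all windows (10.1%). TCANNNNNNACG, the core of the known Abf1 motif, occurred in 14 (42.4%) and in 1361 (22.7%), and ACACCCA, part of the known Rap1 motif, in 2 (6.06%) and in 260 (4.34%). TTACCCT, which differs from the Reb1 core in its last letter and was searched only after the strongest cuts had been located, occurred in 6 (18.2%) and in 429 (7.17%). The stretches below hold the base with the most ends of Reb1-MNase over the 3 libraries at 30 s in their middle, 30 bases to each side, with either of these Reb1 patterns, on either strand, in capitals. They are shown because the cut lay at a similar short distance from these letters in each of these 14 promoters.
RPN12 (chrVI:252328-252388, + strand): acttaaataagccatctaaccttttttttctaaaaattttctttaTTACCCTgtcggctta
PRE3 (chrX:434769-434829, + strand): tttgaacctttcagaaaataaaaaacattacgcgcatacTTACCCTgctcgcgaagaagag
PUP3 (chrV:349723-349783, - strand): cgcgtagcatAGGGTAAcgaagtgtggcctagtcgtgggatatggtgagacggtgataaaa
PRE9 (chrVII:761180-761240, + strand): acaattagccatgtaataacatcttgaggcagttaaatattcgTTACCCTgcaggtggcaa
PRE2 (chrXVI:731950-732010, + strand): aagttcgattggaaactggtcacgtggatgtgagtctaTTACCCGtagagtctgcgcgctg
PRE4 (chrVI:250017-250077, - strand): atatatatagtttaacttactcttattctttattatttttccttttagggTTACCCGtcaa
PUP1 (chrXV:631902-631962, - strand): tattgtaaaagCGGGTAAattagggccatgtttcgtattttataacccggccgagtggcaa
RPT1 (chrXI:173972-174032, + strand): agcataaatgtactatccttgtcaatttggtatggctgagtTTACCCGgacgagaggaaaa
RPT2 (chrIV:437872-437932, + strand): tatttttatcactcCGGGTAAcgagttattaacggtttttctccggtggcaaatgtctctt
RPT5 (chrXV:544807-544867, + strand): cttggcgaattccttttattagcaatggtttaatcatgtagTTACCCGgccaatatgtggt
RPN2 (chrIX:220817-220877, - strand): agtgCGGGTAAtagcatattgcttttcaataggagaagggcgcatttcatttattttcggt
RPN3 (chrV:196768-196828, + strand): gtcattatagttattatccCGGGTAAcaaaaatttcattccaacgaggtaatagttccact
RPN5 (chrIV:190710-190770, + strand): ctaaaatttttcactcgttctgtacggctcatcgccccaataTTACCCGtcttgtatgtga
RPN9 (chrIV:1322023-1322083, + strand): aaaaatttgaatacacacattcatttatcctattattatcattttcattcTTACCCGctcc

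The corresponding stretches around the base with the most ends of Abf1-MNase are given for 6 promoters with the Abf1 letters near that base, and the last is the base with the most ends of Rap1-MNase in PRE2, with ACACCCA in capitals. The Abf1 pattern may lie on either strand.
SCL1 (chrVII:475357-475417, - strand): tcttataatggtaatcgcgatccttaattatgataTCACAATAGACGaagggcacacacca
PRE10 (chrXV:1018888-1018948, - strand): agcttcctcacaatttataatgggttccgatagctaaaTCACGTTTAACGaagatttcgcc
RPN1 (chrVIII:164852-164912, - strand): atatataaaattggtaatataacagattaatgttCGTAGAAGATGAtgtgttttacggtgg
RPT1 (chrXI:173794-173854, + strand): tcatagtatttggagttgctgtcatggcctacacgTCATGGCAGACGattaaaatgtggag
PUP1 (chrXV:631995-632055, - strand): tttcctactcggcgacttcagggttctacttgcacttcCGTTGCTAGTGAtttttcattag
RPN4 (chrIV:417054-417114, - strand): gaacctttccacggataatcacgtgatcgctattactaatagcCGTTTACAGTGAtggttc
PRE2 (chrXVI:732071-732131, + strand): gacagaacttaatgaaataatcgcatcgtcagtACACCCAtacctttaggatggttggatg

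The windows were seldom the property of 1 gene. In 19 of the 33 the window also held the upstream region of a gene transcribed the other way, in 22 it reached into the coding sequence of a neighbor, and only 5 (PRE10, PUP2, PRE1, RPT2 and RPN4) had neither. The intergenic part was 219 bp in RPN10 at the least and 383 bp in the median. A level of PRE2, which shares 400 bp with the ribosomal protein gene RPL11A, or of RPN12, which shares 299 bp with RET2, is therefore also a level of the neighbor's upstream region.

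The 10 libraries at 30 s held between 2745981 and 5165350 fragments. Members counted 95 to 6322 ends in an Abf1 library (median 809), 27 to 3149 in a Rap1 library (median 126), 52 to 11233 in a Reb1 library (median 696) and 110 to 319 in the free MNase library (median 212). For RPT6, the lowest in free MNase, 110 ends gave 21.9 EPM with an exact 95% Poisson interval of 18.01 to 26.4, and for PRE10, the highest, 63.5 (56.8 to 70.9). Such intervals cover counting error only, since fragments were amplified by PCR without molecular identifiers and copies cannot be told from repeated cuts. Distinct fragments made up 67.8% to 76.2% of the Abf1 libraries, 50.8% to 55.1% of the Rap1 libraries, 43.2% to 58.0% of the Reb1 libraries and 53.3% of the free MNase library. Each ChEC experiment started from its own culture, but the sources do not say outright that every replicate was a separate experiment, so p-values measure the spread between these libraries, part of which may be technical, and free MNase, with 1 library, was taken to vary as the factors did. The first of the 3 libraries of each factor carried another run code, a date-like number, than the rest, and all free MNase libraries shared the code of the first Reb1 library. The sample descriptions do not say what the code dates, and a run below means libraries that share a code.

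Most proteasome promoters were cut by Abf1-MNase and by Reb1-MNase at 30 s, and few by Rap1-MNase. The median level over the 33 members was 134, 124 and 145 EPM in the 3 Abf1 libraries, where the median of all promoters was 38.6, 47.8 and 46.1. In the Reb1 libraries the members stood at 103, 130 and 154 against 21.4, 29.3 and 33.7, in the Rap1 libraries at 19.6, 21.01 and 19.002 against 19.7, 21.4 and 19.002, and in free MNase at 42.2 against 38.8. The members thus stood above the rest of the promoters with Abf1 and Reb1, and near it with Rap1 and free MNase. Within the members, levels spread widely with Abf1 and Reb1, from 11.1 to 1366 EPM in the first Reb1 library, whereas free MNase spanned only 21.9 to 63.5.

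**Figure D1:**
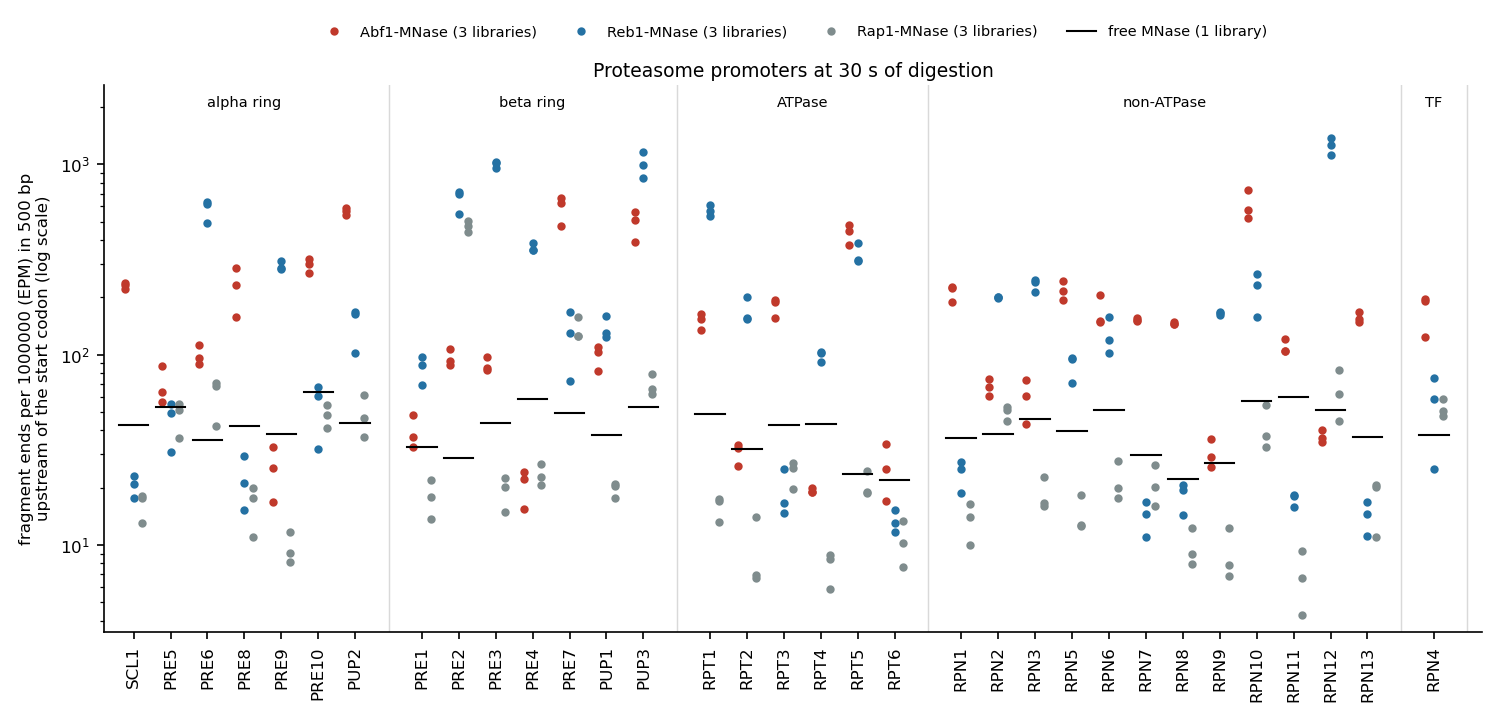
EPM (log axis) of each proteasome promoter at 30 s, ordered by role, with 1 point per library, 3 libraries of Abf1, Rap1 and Reb1 and 1 of free MNase. Free MNase lies between 21.9 and 63.5 throughout, while Reb1 reaches 1366 at RPN12 and falls to 11.1 at RPN7.

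Tested with edgeR's quasi-likelihood test on all 5981 promoters that passed the filter on low counts, which all 33 members did, Abf1-MNase was higher than free MNase in 23 members and lower in 2 at an adjusted p under 0.05. Among all promoters 38.3% were higher and 27.7% lower, 66% in either direction. The median log2 fold change was 1.71 over the members and 0.20 over all promoters. By role, 5 of 7 alpha ring, 5 of 7 beta ring, 3 of 6 ATPase and 9 of 12 non-ATPase genes were higher, as was RPN4.

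RPT5, an ATPase of the base of the regulatory particle, stood at 481, 376 and 443 EPM with Abf1 and at 23.5 with free MNase. The 3 Abf1 libraries were all far above the control, a log2 fold change of 4.20 ± 0.40 (SE, edgeR adjusted p = 3.4e-09), and the base with the most Abf1 ends was 499 bp from the start codon, at the far edge of the window and in the stretch shared with RPO31. PUP2, an alpha ring gene with no neighbor in its window, stood at 586, 539 and 570 against 43.8, again without overlap (3.69 ± 0.42). PRE7, of the beta ring, stood at 662, 476 and 623 against 49.4 (3.57 ± 0.44). In none of these did the spread between the Abf1 libraries come near the distance to the control.

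RPN10, which encodes a ubiquitin receptor of the proteasome, had the highest Abf1 level of the members, 731, 573 and 522 EPM, against 57.0 with free MNase (3.42 ± 0.42). Its strongest base was 486 bp from the start codon, near the far edge of a window that holds 214 bp of the coding sequence of NBL1. PUP3, of the beta ring, stood at 558, 389 and 510 against 52.8 (3.20 ± 0.39). Both ranked within the highest 5% of all promoters with Abf1, as 4 members did. RPN8, a scaffold partner of the deubiquitinating subunit, followed with 144, 148 and 145 against 22.1 (2.72 ± 0.38), RPN1, a docking site for ubiquitin-like proteins, with 188, 225 and 223 against 36.4 (2.54 ± 0.37) and the lid subunit gene RPN5 with 194, 217 and 242 against 39.6 (2.46 ± 0.36).

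The 2 lower members were PRE4, of the beta ring, and RPT4, an ATPase. PRE4 stood at 15.4, 22.2 and 24.1 EPM with Abf1 and at 58.8 with free MNase, a log2 fold change of -1.53 ± 0.30 (edgeR adjusted p = 5.6e-05). RPT4 stood at 18.95, 19.9 and 18.94 against 43.0 (-1.16 ± 0.31), and was no longer called in windows of 300 bp (-0.65) or windows cut at the neighbor's coding sequence (-0.50). The 8 members without a call ranged from -0.63 (PRE9) to 0.38 (PRE5) on the log2 scale.

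RPN4, which encodes the transcription factor of these genes, was higher with Abf1. Its levels were 196, 124 and 191 EPM, above the 37.8 of free MNase in every library (2.17 ± 0.44, edgeR adjusted p = 1.0e-04), and the base with the most ends lay 376 bp from the start codon, 13 bp from an Abf1 pattern, though it was the strongest base in 1 of the 3 libraries only. The call was lost in windows of 300 bp, which leave that base out. With Rap1 it stood at 50.3, 58.4 and 47.5 and with Reb1 at 25.05, 58.2 and 75.2, neither of which passed the test, and the Reb1 libraries lay on both sides of the control.

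Reb1-MNase was higher than free MNase in 21 members and lower in 6 (28.1% and 41.1% of all promoters, 69.3% in either direction), with a median log2 fold change of 1.36 against -0.43 over all promoters. All 7 beta ring genes were higher, as were 3 of 7 alpha ring, 4 of 6 ATPase and 7 of 12 non-ATPase genes, and RPN4 was not called. With Reb1, 3 members were within the highest 1% of all promoters, 6 within the highest 5% and 9 within the highest 10%.

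RPN12, a lid subunit gene, was the strongest, with 1366, 1261 and 1123 EPM against 50.99 with free MNase (44.9 to 57.6, exact Poisson). The log2 fold change was 4.62 ± 0.43 (edgeR adjusted p = 1.0e-09), and the promoter ranked 39th of 5987. PRE3, which encodes a catalytic beta subunit, stood at 1018, 1033 and 954 against 43.6 (4.52 ± 0.41). PUP3 stood at 1163, 985 and 849 against 52.8 (4.24 ± 0.41). In all 3 promoters every Reb1 library was far above the control, and they were the members within the highest 1% of promoters.

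PRE2, which encodes the catalytic beta subunit that cuts after hydrophobic residues, stood at 545, 717 and 695 EPM with Reb1 against 28.7 (4.51 ± 0.40). PRE6, of the alpha ring, stood at 489, 635 and 620 against 35.5 (4.03 ± 0.42) and held neither TTACCCG nor TTACCCT. The ATPase gene RPT1 stood at 608, 565 and 533 against 48.8 (3.54 ± 0.38), RPT5 at 310, 386 and 313 against 23.5 (3.84 ± 0.40), and PRE9, the alpha ring gene dispensable for growth, at 280, 312 and 283 against 38.2 (2.93 ± 0.39). In each, every Reb1 library was above the control.

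Of the members, 6 were lower with Reb1 than with free MNase: RPN11, RPN13, RPT3, RPN7, SCL1 and PRE8. RPN11, the deubiquitinating subunit, stood at 17.99, 15.9 and 18.4 EPM against 59.8 (-1.77 ± 0.32, edgeR adjusted p = 2.3e-05), the ubiquitin receptor RPN13 at 11.2, 16.8 and 14.5 against 37.0 (-1.40 ± 0.34) and the ATPase RPT3 at 14.7, 16.6 and 25.1 against 42.6 (-1.19 ± 0.32). When identical fragments were counted once, RPN11 alone kept this call, with 22 members higher and 1 lower.

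Rap1-MNase was higher than free MNase in 3 members and lower in 20 (18.9% and 55.3% of all promoters, 74.1% in either direction), with a median log2 fold change of -1.08 against -0.94 over all promoters. The split depended on the scaling: it was 8 higher and 10 lower with TMM scaling, and 8 and 7 with DESeq2 or with identical fragments counted once. The 3 higher calls and 6 of the lower ones (PRE9, RPT1, RPT2, RPT4, RPN9 and RPN11) held under all 3 of these. RPT3, which was lower as reported (-0.83), was at 0.15 and without a call with identical fragments counted once.

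PRE2 was the one member with a high Rap1 level, 471, 501 and 440 EPM against 28.7 (4.04 ± 0.39, edgeR adjusted p = 1.2e-09), in the window it shares with RPL11A. Its base with the most Rap1 ends lay 3 bp from ACACCCA. PRE7 stood at 158, 126 and 125 against 49.4 (1.46 ± 0.39), a call lost when the run code was a term of the fit (0.63). PRE6 stood at 70.7, 68.6 and 42.2 against 35.5 (0.77, edgeR adjusted p = 0.048). The PRE6 call was lost in windows of 300 bp, in windows cut at coding sequence, with the run code and with pooled free MNase libraries. It was also lost when some single replicates were left out. The lowest was RPN11, with 4.30, 9.34 and 6.71 against 59.8 (-3.14 ± 0.33), followed by RPT4 with 5.89, 8.44 and 8.80 against 43.0 (-2.48 ± 0.31) and PRE9 with 9.07, 11.7 and 8.10 against 38.2 (-2.00 ± 0.33).

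The 3 comparisons share their single control library, so their values are set side by side without a test of their overlap. Abf1 and Reb1 were both higher than free MNase in 13 members (15.9% of all promoters): PRE6, PUP2, PRE2, PRE3, PRE7, PUP1, PUP3, RPT1, RPT5, RPN2, RPN5, RPN6 and RPN10. Abf1 alone of the pair was higher in 10 (22.5%): SCL1, PRE8, PRE10, RPT3, RPN1, RPN7, RPN8, RPN11, RPN13 and RPN4. Reb1 alone was higher in 8 (12.3%): PRE9, PRE1, PRE4, RPT2, RPT4, RPN3, RPN9 and RPN12. Neither was higher in PRE5, of the alpha ring, and RPT6, an ATPase (49.4%). PRE6, PRE2 and PRE7 were higher with all 3 factors (7.87%), and 0 members were lower with all 3, against 19.3% of all promoters. The Rap1 calls of PRE6 and PRE7 did not hold in every setting, as given above.

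**Figure D2:**
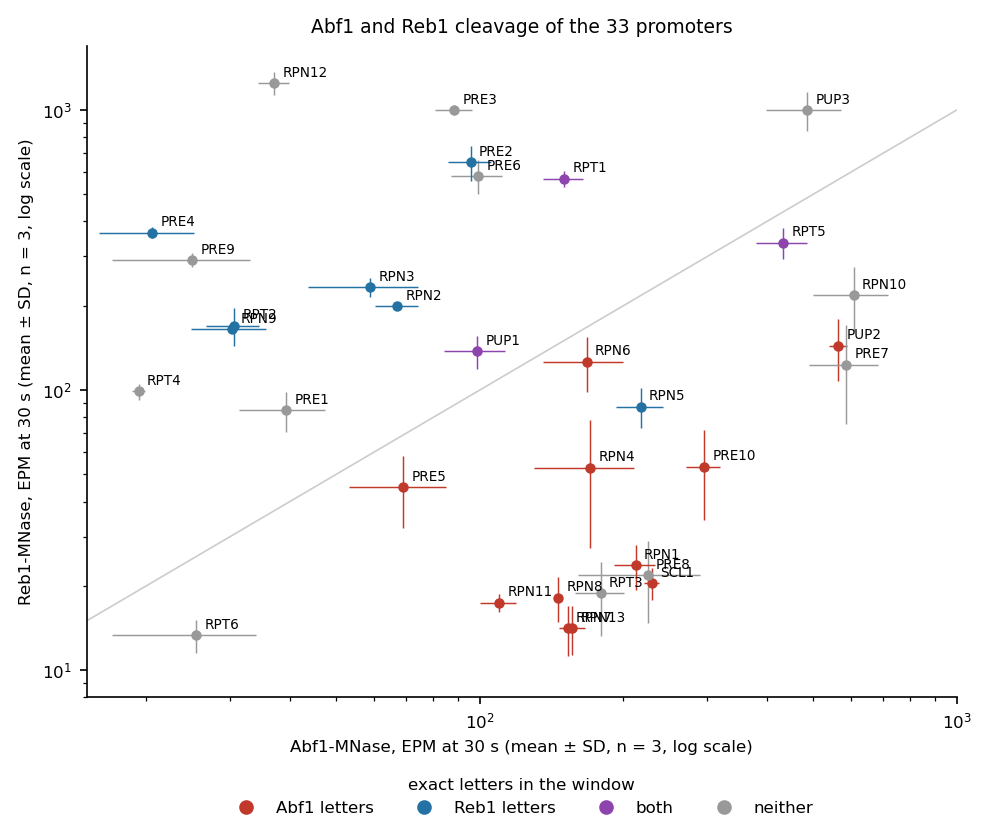
Mean EPM at 30 s (log axes) with Abf1 on the x axis and Reb1 on the y axis, 1 point per proteasome promoter with bars of 1 SD over 3 libraries, colored by whether the window holds TCANNNNNNACG (Abf1 letters), TTACCCG (Reb1 letters), both or neither, and a gray line where both levels are equal. RPN12 (1250 with Reb1, 37.1 with Abf1) and PRE4 lie far above the line, SCL1 (20.5 and 229.6) and RPN8 far below it, and PUP3 and RPT5 are high on both axes.

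Compared directly, Abf1 and Reb1 divided the members. Abf1 was higher than Reb1 in 16 members (45% of all promoters) and lower in 15 (23.8%, or 68.8% in either direction), and only RPT5 (0.37) and RPN6 (0.40) were not called. The beta ring genes were lower with Abf1 in 6 of 7 cases, all but PRE7, whereas 5 of 7 alpha ring, 2 of 6 ATPase and 7 of 12 non-ATPase genes were higher with Abf1. SCL1, of the alpha ring, stood at 231, 237 and 220 EPM with Abf1 and at 17.6, 20.8 and 22.9 with Reb1, a log2 difference of 3.49 ± 0.23 (edgeR adjusted p = 7.2e-14). RPN13 (3.48) and the lid subunit gene RPN7 (3.45) came next, RPN7 with 156, 151 and 152 against 11.1, 14.6 and 16.8.

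In the other direction, RPN12 stood at 40.0, 36.5 and 34.7 EPM with Abf1, below all 3 Reb1 libraries by a log2 difference of -5.07 ± 0.27 (edgeR adjusted p = 5.3e-15). PRE4 followed at -4.16 ± 0.25, its Reb1 libraries being at 384, 355 and 355, and PRE9 at -3.56 ± 0.25. In 28 of the 31 called members the call and its direction held with TMM scaling, with DESeq2 and with identical fragments counted once, while PRE5, RPT6 and PUP3 lost it in at least one. The median log2 difference over members, 0.40 against 0.41 over all promoters, turned to -0.10 with TMM, -0.06 with DESeq2 and -0.0031 with identical fragments counted once.

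Abf1 was higher than Rap1 in 29 members (63.1% of all promoters) and lower in 2 (15.2%, or 78.3% in either direction), with a median log2 difference of 2.32 against 0.99. RPT5 had the largest difference (4.39 ± 0.25), followed by RPN11 (4.02 ± 0.28) and RPN1 (3.98 ± 0.25), and the libraries of the 2 factors did not overlap in any of them. PRE2 (-2.30 ± 0.22) and RPN12 (-0.77 ± 0.23) were higher with Rap1. With TMM scaling the counts were 23 and 4, and PRE5 (0.54) and PRE6 (0.72), higher with Abf1 as reported, were at -0.41 and -0.19 without a call.

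Rap1 was higher than Reb1 in 1 member (21.5% of all promoters) and lower in 23 (48.1%, or 69.7% in either direction), with a median log2 difference of -2.25 against -0.54. PRE3 was at -5.71 ± 0.26 (edgeR adjusted p = 5.9e-17), with Rap1 levels of 22.4, 20.1 and 14.9 EPM, and RPT1 (-5.16 ± 0.25) and PRE9 (-4.93 ± 0.27) followed. The single higher member, RPN7 (0.57, adjusted p = 0.041), had overlapping libraries of 16.1, 26.2 and 20.3 with Rap1 and 11.1, 14.6 and 16.8 with Reb1, and lost its call under 10 of the alternative settings. PRE2 was slightly lower with Rap1 than with Reb1 (-0.47, adjusted p = 0.047), but higher with identical fragments counted once (0.41, adjusted p = 0.018), so no direction holds for it.

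All 10 members with TTACCCG were higher with Reb1 than with free MNase, with a median log2 fold change of 2.51, against 11 of the 23 without (0.47). Over all promoters with these letters 93.7% were higher, and of those without 20.8%. Of the 14 members with the Abf1 letters, 13 were higher with Abf1 (median 2.19), PRE5 being the exception, against 10 of the 19 without (0.82), while over all promoters with the letters 70.6% were higher and without them 28.8%. Of the 6 members with TTACCCT, 5 were higher with Reb1, against 65% of all promoters with it. Of the 27 members with PACE, 18 were higher with Abf1 (64.6% of all promoters with PACE) and 19 with Reb1 (56.6%), and of the 6 without it 5 were higher with Abf1 and 2 with Reb1. These letters match many places, and their presence is a description and not a test of binding.

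In members with PACE, the letters of the factors lay upstream of it. All 9 TTACCCG matches, all 5 TTACCCT matches, all 10 Abf1 matches and both ACACCCA matches in these promoters were on the side of PACE away from the start codon. PACE started at most 183 bp from the start codon in windows of 500 bp, so most of the searched bases lay on that side. Other promoters with PACE were not counted in this way. The distance to PACE was 11 bp in RPT5 to 200 bp in PRE2 for TTACCCG, 4 bp in PRE9 to 238 bp in PUP3 for TTACCCT and 11 bp in RPN1 to 265 bp in RPT5 for the Abf1 pattern.

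**Figure D3:**
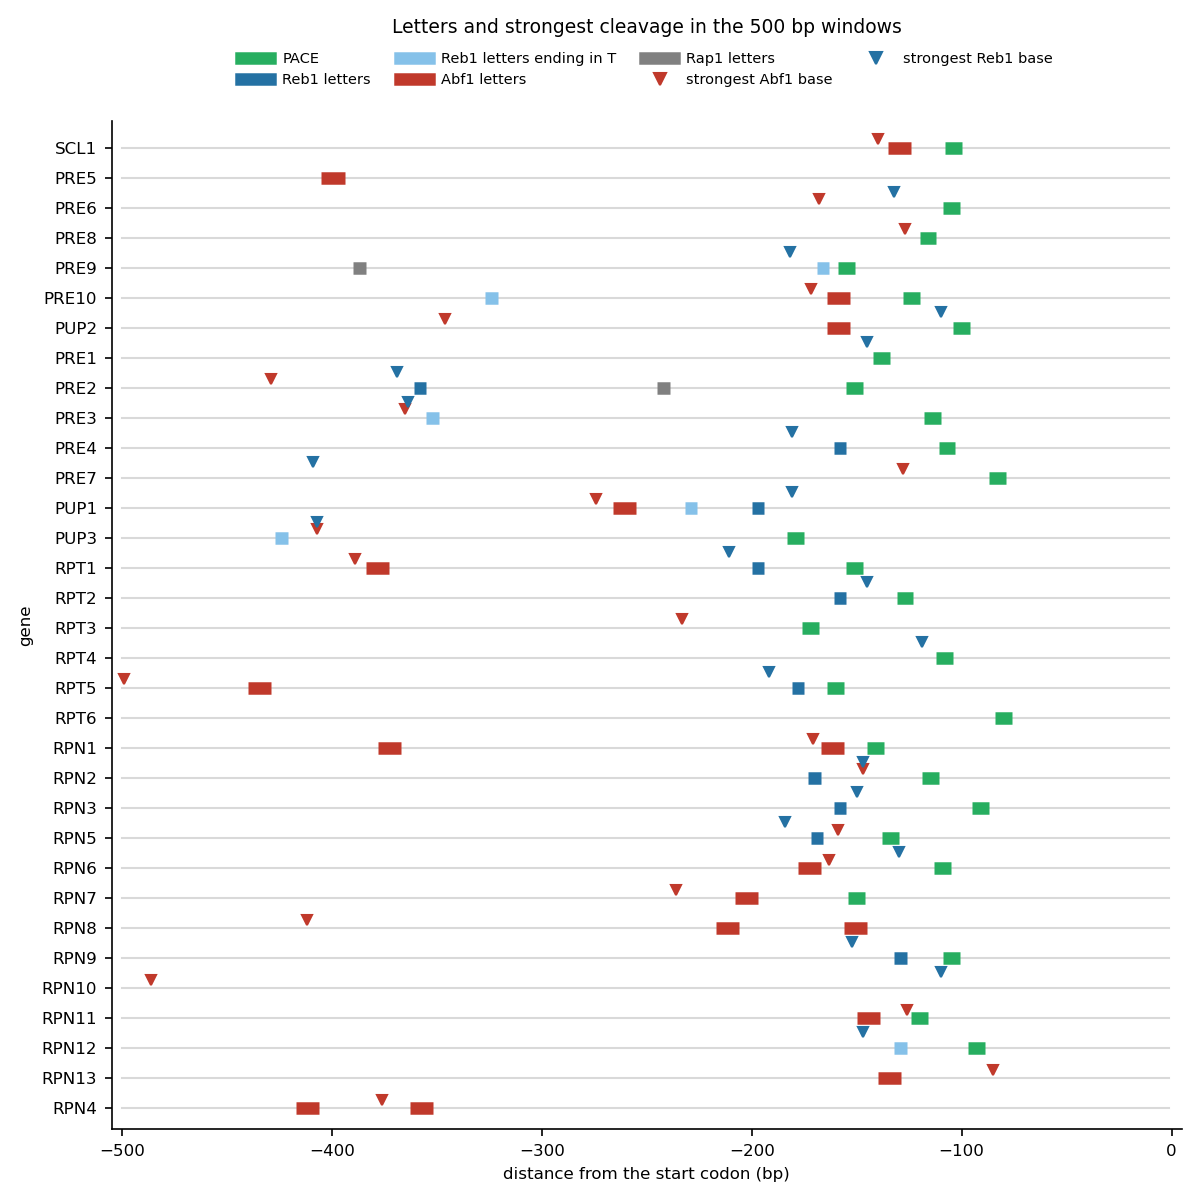
Distance from the start codon in bp (x axis) of PACE, TTACCCG (Reb1 letters), TTACCCT (Reb1 letters ending in T) and the Abf1 and Rap1 patterns in the 33 windows, 1 line per gene, with triangles at the base with the most ends at 30 s for each factor that was higher than free MNase there. PACE starts between 183 and 84 bp from the start codon, and in the 27 genes that hold it every other pattern lies to its left.

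Cuts of Reb1-MNase were concentrated at a few bases. In the 21 members higher with Reb1, 51 bp around the strongest base held a median of 51.8% of the ends in the 500 bp window (20.1% to 66.9%), that base was the same in all 3 libraries in 12 members, and in 18 it was the same to within 10 bp. In the 23 members higher with Abf1 the share was 27.5% (15.4% to 41.6%), and the base was the same in 5 and within 10 bp in 9. In the other 10 members the Abf1 share was 30.9% (9.54% to 45.8%), so those called higher were not the more concentrated. In the other 12 members the Reb1 share was 26.5% (14.4% to 37.8%). Each base was picked as the highest in the same counts, which raises every such share. In RPN12, 2726 ends over the 3 libraries fell on 1 base 147 bp from the start codon, made by 251 distinct fragments, and the surrounding 51 bp held 778, 750 and 644 EPM against 5.98 with free MNase. In PRE3, the base at 364 bp had 4104 ends of 418 distinct fragments, and its 51 bp held 511, 511 and 464 against 5.38.

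The strongest Reb1 base lay on the 5′ side of TTACCCG in all 10 members that hold it, 5 bp (RPN3) to 20 bp (PRE4, RPN2 and RPN9) away, the side being read along TTACCCG itself and not along the gene. The same held for TTACCCT in 4 of 6 members, at 9 bp in PRE3, 13 bp in PRE9, 14 bp in PUP3 and 15 bp in RPN12. Of the 14 members with the Abf1 pattern, 9 had their strongest Abf1 base within 30 bp of it, 5 on one side and 4 on the other. In PRE1, PUP2 and RPT4, which hold neither TTACCCG nor TTACCCT, the strongest Reb1 base was the same in all 3 libraries and lay 3, 6 and 7 bp from PACE, on the side away from the start codon.

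In PUP3 the strongest base of Abf1 and of Reb1 was one and the same, 407 bp from the start codon, in all 3 libraries of both, with 6300 Reb1 ends of 385 distinct fragments and 1478 Abf1 ends of 205 distinct fragments. The 2 factors shared their strongest base in 5 members, PRE5, PUP3, RPN2, RPN8 and RPN9, and in all of these but PUP3 Rap1 shared it too. MNase prefers some bases over others, and the part of that in a shared base was not tested.

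The side of the cuts differed between the library of the amino-terminal fusion and those of the carboxyl-terminal fusions of Reb1. Within 40 bp of the 10 TTACCCG sites, 93.6%, 92.5% and 92.2% of the ends of the 3 Reb1 libraries at 30 s lay on the 5′ side (92.8% ± 0.72, SD, n = 3), and the 5′ side was the higher in 10 of 10 sites in each. The short linker gave 91.9% and again 10 of 10 sites. With MNase at the amino end of Reb1 the share was 46.6%, with the 5′ side the higher in 5 of 10 sites, and with free MNase it was 46.2%. With identical fragments counted once the shares were 89.9%, 88.7% and 88.1% for Reb1 and 47.2% for the amino-terminal fusion. At 499 sites in other promoters, they were 90.2%, 89.7% and 89.0% for Reb1 and 51.2% for the amino-terminal fusion. The amino-terminal fusion had 1 library at 30 s and was expressed from a plasmid. It came from another run than the 3 Reb1 libraries, but from the same run as the short-linker library, which had 91.9%. Its difference from the carboxyl-terminal fusions has no replicate check on its own side, and the end of attachment and the plasmid cannot be told apart.

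**Figure D4:**
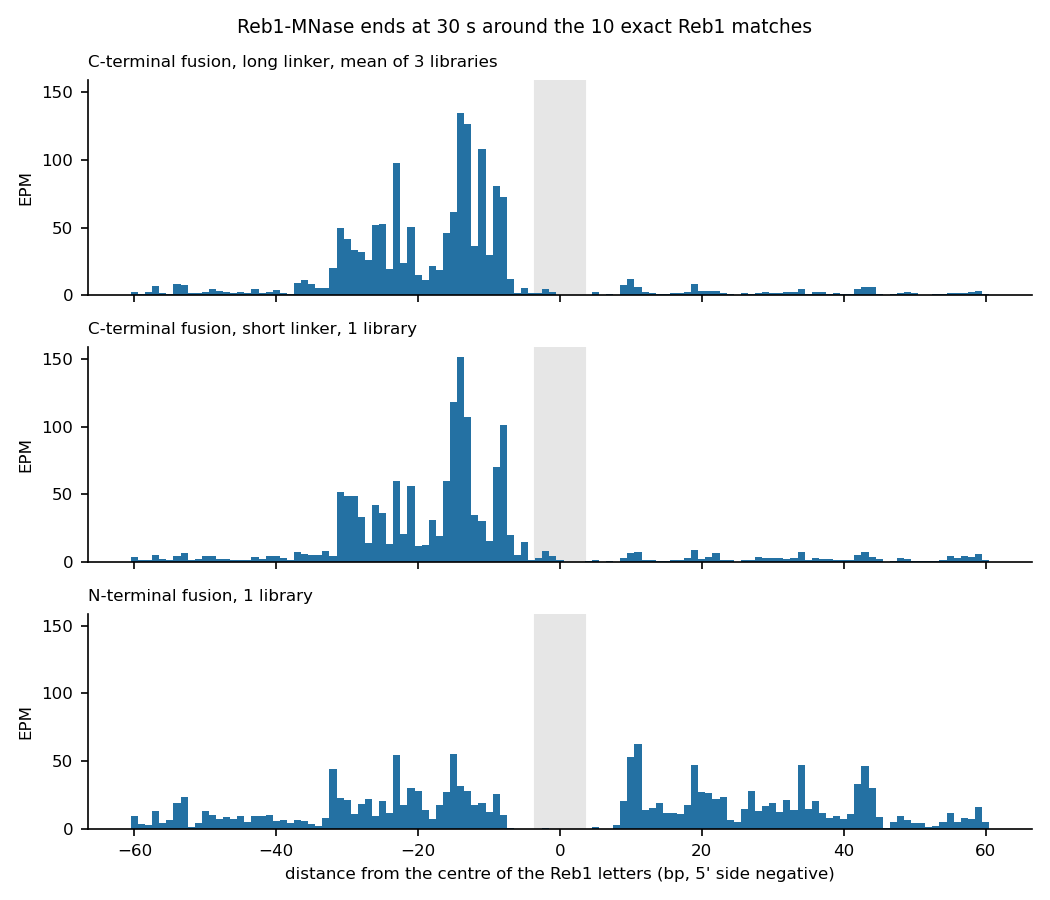
EPM at each distance from the center of the TTACCCG letters (x axis, bp, 5′ side to the left, letters shaded) over the 10 proteasome promoters with a site at 30 s, for the mean of 3 libraries of the carboxyl-terminal fusion with the long linker and for 1 library each of the short linker and the amino-terminal fusion. The 3 long-linker libraries have 92.2% to 93.6% of the ends within 40 bp on the left, and the amino-terminal fusion has 46.6%.

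Among the members, the amino-terminal fusion ranged from 8.04% on the 5′ side in RPN5 (exact 95% binomial interval 5.27% to 11.6%) through 22.1% in RPN3, 34.6% in RPT2, 38.1% in RPT1 and 39.1% in PRE2 to 74.2% in RPN9 and 75% in PUP1. RPN5 also had the least one-sided cuts of the carboxyl-terminal fusion, 75.1%, 54.9% and 67.8%, whereas RPN9 had 97.6%, 98.5% and 98.3%. After 5 m of digestion the share over the 10 sites was 75.9% for Reb1, 72.8% for the short linker and 53.4% for the amino-terminal fusion. The letters themselves held few ends of the amino-terminal fusion at 30 s, 8 over the 10 sites, and 38, 53 and 47 in the 3 Reb1 libraries.

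PACE itself held fewer ends than its flanks. Over the 27 sites at 30 s, ends per base within the letters were 0.185, 0.161 and 0.199 of those in the flanking bases in the 3 Reb1 libraries, 0.386, 0.347 and 0.279 with Abf1 and 0.342, 0.241 and 0.290 with Rap1. With free MNase the ratio was 0.926 at 30 s, from 116 ends, but this was the highest of its libraries. It was 0.862 at 10 s, 0.657 at 40 s, 0.328 at 50 s (16 ends) and 0.520 at 60 s, and 0.511 without calcium. The letters were lower than their flanks in 16 of 27 sites at 30 s, in 22 at 60 s and in 23 without calcium. From 2.5 to 20 m the ratio with free MNase was 0.202 to 0.246, so that a low ratio was not particular to the fusions.

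Between 2.5 and 20 m, single libraries of the same run, 26 of 33 members fell with Abf1 (48.0% of all promoters), 10 of them at least 2-fold (16.4% of all promoters), and 0 rose that far (9.83%), with a median log2 change of -0.66 against 0.07 over all promoters. All 23 members higher with Abf1 at 30 s were among those that fell, as were 98.2% of all promoters higher with Abf1. With Reb1, 20 fell (25.9%), 9 of them at least 2-fold (9.9%), while 3 rose that far (20.3%), with a median of -0.42 against 0.56, and 19 of the 21 members higher at 30 s fell, against 81.0% of all promoters higher with Reb1. Falling over the minutes was thus common to promoters that these factors cut at 30 s. With Rap1, 31 rose (76.3%), 12 at least 2-fold (38%) while 1 fell that far (10.6%), and with free MNase 31 rose (84.6%) and 0 changed 2-fold in either direction (0.134% rose and 0.92% fell). These words describe single libraries without a test. A level relative to all ends falls when ends gather elsewhere, and what part of the change this is cannot be told from these values.

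Between 10 and 60 s, 26 members rose with Abf1 (86.6% of all promoters), 33 with Rap1 (96.9%), 32 with Reb1 (78.4%) and 15 with free MNase (49.3%). With Abf1, 4 rose at least 2-fold (22.1% of all promoters), with Reb1 8 (23.2%) and with Rap1 26 (63.8%), and 0 fell that far with Abf1 (1.24%), Reb1 (2.12%) or Rap1 (0.134%). With free MNase 3 fell at least 2-fold (3.03%) and 0 rose that far (6.09%). The first and last of these times were a single library each, and the free MNase library of 20 s, with 47677 fragments, is left out of the plot of the courses. Distinct fragments made up 13.8% of the Reb1 library at 10 s and 29.4% at 60 s. These shares were 67.4% and 77.1% with Abf1, 45.5% and 65.2% with Rap1 and 26.2% and 53.0% with free MNase. The part of copied fragments in these changes was not tested.

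RPN12 with Reb1 stood at 1142, 1420, 1366, 1204, 1257 and 1190 EPM from 10 to 60 s and at 285, 201, 160 and 113 from 2.5 to 20 m. PRE2 with Reb1 went from 422 to 668 within the seconds, was at 918 at 2.5 m and at 389 at 20 m. The 2 promoters thus differed in when they were highest, at 20 s for RPN12 and at 2.5 m for PRE2. The seconds and the minutes of a factor had different run codes, so that a step between 60 s and 2.5 m cannot be told apart from a difference between runs.

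RPN10 with Abf1 stood at 636, 719, 731, 737, 679 and 644 EPM over the seconds and at 395, 284, 212 and 155 over the minutes. PRE2 with Rap1 was between 373 and 473 over the seconds, and at 234, 142, 110 and 76.8 over the minutes. PRE7 with Rap1 went up from 90.3 at 10 s to 250.5 at 60 s and 337 at 5 m, and was at 172 at 20 m. By 20 m RPN10 with Abf1 was within 2-fold of its free MNase level at that time, 81.4.

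**Figure D5:**
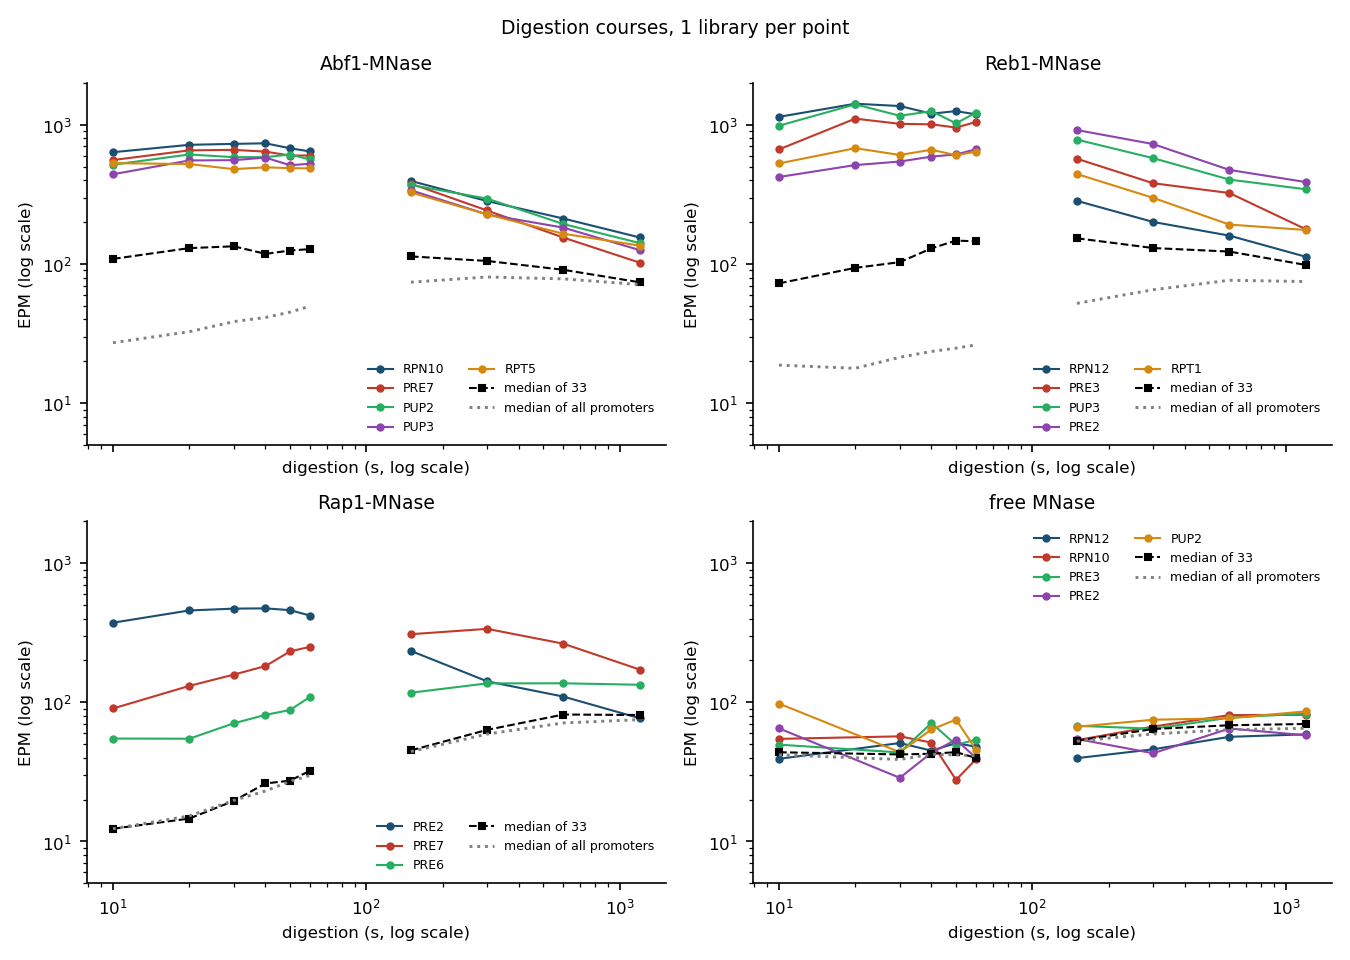
EPM (log axis) against digestion time in seconds (log axis), 1 library per point, for the proteasome promoters named in each panel, the median of the 33 and the median of all promoters, with a gap between 60 s and 2.5 m where the run changed for the factors. With Abf1 and Reb1 the named promoters come down over the minutes, RPN12 from 285 to 113 with Reb1, while the median of the 33 with free MNase goes from 53.0 to 69.9.

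Against the mean of the 3 libraries with the long linker, the short-linker Reb1 library was at least 2-fold higher in 2 members, RPT6 and RPN13 (2.02% of all promoters), and lower in 0 (0.0501%). In this library 6 of 33 members lay inside the range of the 3 libraries, 18 above it and 9 below. Its lowest was PRE2, at 400.0 EPM and a log2 difference of -0.71. Its median log2 difference was 0.31 over the members and 0.30 over all promoters, so the shift upward was not particular to the members. The amino-terminal fusion was 2-fold higher in 1 member, RPN5 (2.47%), with 196 against 71.2, 94.3 and 96.5, and lower in 0 (2.74%), and 17 of 33 members lay inside the range, 7 above it and 9 below. The median log2 difference of the amino-terminal fusion was -0.012 over the members and -0.051 over all promoters. RPN12 was at 1050 with the short linker and at 916 with the amino-terminal fusion. With the short-linker Abf1 fusion 0 members changed 2-fold (1.29% of all promoters higher and 0.484% lower). Of the 33, 11 lay inside the range of the 3 Abf1 libraries, 15 above it and 7 below. The largest difference was that of RPN4, at 304 against 196, 124 and 191. The median log2 difference was 0.17 over the members and 0.02 over all promoters. How many of all promoters lay inside, above or below these ranges was not counted.

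Without calcium the members were near the other promoters with Abf1 and free MNase, and somewhat higher with Rap1 and Reb1. Their median was 44.4 EPM with Abf1 (46.1 over all promoters), 54.8 with Rap1 (47.9), 77.2 with Reb1 (63.6) and 43.8 with free MNase (41.9). Members above the median of all promoters numbered 14 with Abf1, 21 with Rap1, 23 with Reb1 and 21 with free MNase. Distinct fragments made up 78.8% of the Abf1 library, 16.5% of the Rap1, 31.8% of the Reb1 and 14.8% of the free MNase library. With Abf1 the members lay between 31.4 and 59.5. With Reb1 the highest were PUP3 at 209, PRE2 at 156, PRE3 at 152 and PRE7 at 145, each of which was also higher with Reb1 than with free MNase at 30 s.

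Other genes of the pathway were counted in the same way. Of 17 genes for assembly chaperones and associated proteins, 1 held PACE, and 4 were higher and 6 lower with Abf1 than with free MNase (median log2 fold change -0.35), 6 higher and 8 lower with Reb1 (-0.61) and 2 higher and 14 lower with Rap1 (-1.85). Of 8 genes for ubiquitin supply and delivery, 3 held PACE, and 4 were higher and 2 lower with Abf1 (0.69) 3 higher and 1 lower with Reb1 (0.30) and 2 higher and 4 lower with Rap1 (-0.71). Of all promoters, 38.3% were higher and 27.7% lower with Abf1 (0.20), 28.1% and 41.1% with Reb1 (-0.43) and 18.9% and 55.3% with Rap1 (-0.94). The difference between these lists and the members was not tested.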

How the data were processed

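Fragment ends of 56 libraries were counted, and 1 crosslinked ChIP library of the series was not used. The authors mapped paired reads to sacCer3 with Novoalign 2.08.03 and deposited 1 line per mapped fragment with its start and end, with no normalization and identical fragments kept, so that counts of ends were taken here from the deposited positions. Ends in the 500 bp upstream of each start codon of the R64 annotation were counted in 5987 promoters, excluding the rDNA (chromosome XII, 450000 to 490000), and scaled per 1000000 nuclear ends outside it (EPM). The 10 libraries at 30 s were fitted with edgeR 4.0.16 (R 4.3.3, quasi-likelihood, filterByExpr, no scaling factor), with Benjamini-Hochberg adjustment over 5981 promoters and calls at 0.05. The procedure was tested on simulated counts with a shared dispersion and few promoters changed. That setting is unlike these data and says nothing on the single control library or the scaling. Folds between single libraries used a pseudocount of 0.5 EPM and a minimum of 20 ends. The members were listed by gene name and not by a measured value, but they and the lists were chosen with earlier results of these data known. Values in every library were given for up to 8 members called higher than free MNase at a log2 fold change of at least 1 and up to 3 called lower at -1 or less per factor, up to 3 per direction between factors, and RPN4. Other members named were chosen after their values were seen. Alternatives were TMM and DESeq2 1.42.0 scaling, no filter, identical fragments counted once, windows of 300 bp or cut at coding sequence, run code, pooled free MNase, the replicate block and each replicate left out.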

Additional observations from a re-analysis of the deposited data

Results flagged for a closer look

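In 32 cases a member was called higher than free MNase with one factor and lower with another, and the difference between the factors was itself called by edgeR's quasi-likelihood test with Benjamini-Hochberg adjustment. Of these, 12 were of Abf1 and Rap1, 8 of Abf1 and Reb1 and 12 of Rap1 and Reb1. Such cases were not counted over all promoters, so the 32 do not set the members apart. Of all promoters, 38.3% were higher and 27.7% lower with Abf1, 18.9% and 55.3% with Rap1, and 28.1% and 41.1% with Reb1. Both factors were set against the same control library, so the direction of the difference between them follows from the other 2 calls. With TMM scaling 20 of the 32 held, with identical fragments counted once 11, and under both settings 10, which are given here. RPT1 was higher with Abf1 than with Rap1 by 3.24 on the log2 scale, and RPN11 by 4.02. Against Reb1, Abf1 was lower at PRE4 (-4.16) and RPT4 (-2.36) and higher at RPN11 (2.65). The call of RPT4 as lower with Abf1 than with free MNase was lost in windows of 300 bp and in windows cut at coding sequence. Rap1 was lower than Reb1 at PRE9 (-4.93), RPT1 (-5.16), RPT2 (-4.22), RPT4 (-3.68) and RPN9 (-4.21). RPN11 thus stood apart from free MNase in opposite directions with Abf1 and with both other factors, with Abf1 levels of 104, 104 and 120.8 EPM, Rap1 levels of 4.30, 9.34 and 6.71, Reb1 levels of 17.99, 15.9 and 18.4, and 59.8 with free MNase. Its Abf1 side was the weaker, with a log2 fold change of 0.88 against free MNase. That call was lost with the run code as a term and without Abf1 replicate 3.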

How the results depend on the processing

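Of 727 values of the 41 named results, each a member in a comparison, 711 kept their direction and side of the threshold, 16 lost the call and 0 reversed. Calls of members not named by the rule are not among them, and those of Rap1 against free MNase depended on the scaling, as given above. The median member log2 fold change of Abf1 against free MNase was 1.49 with TMM, 1.54 with DESeq2, 1.58 in 300 bp windows and 1.33 with the run code. That of Rap1 was -0.37, -0.29, -0.57 and -1.28 under the same settings, -0.16 with identical fragments counted once, -0.86 in windows cut at coding sequence and -1.18 with pooled free MNase, and its called members were 15 with DESeq2 and 15 with identical fragments counted once. That of Reb1 was 2.083 with identical fragments counted once, 1.85 in 300 bp windows and 1.75 in cut windows. Abf1 against Rap1 gave 1.399 with TMM, 1.36 with DESeq2, 1.71 with identical fragments counted once and 2.53 in 300 bp windows. Abf1 against Reb1 turned to -0.10 with TMM, -0.062 with DESeq2 and -0.0031 with identical fragments counted once, and Rap1 against Reb1 gave -1.78, -1.70 and -1.65. The cause of these shifts was not tested. Leaving out each replicate gave 23 to 26 called members for Abf1 against free MNase (medians 1.56 to 1.79), 21 to 23 for Rap1 (-1.22 to -0.90), 27 to 27 for Reb1 (1.35 to 1.59), 29 to 32 for Abf1 against Rap1 (2.24 to 2.44), 29 to 31 for Abf1 against Reb1 (0.32 to 0.49) and 22 to 25 for Rap1 against Reb1 (-2.42 to -2.09). TMM moved the median of all promoters for Rap1 against free MNase from -0.94 to -0.22 and for Reb1 from -0.43 to -0.19.

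With the replicate number as a block, 31, 31 and 23 members were called for Abf1 against Rap1, Abf1 against Reb1 and Rap1 against Reb1. Correlations of same-numbered libraries over 4202 promoters were 0.12 to 0.42 for Abf1 and Rap1, which also shared run codes, but -0.03 to 0.09 for Abf1 and Reb1 and -0.06 to 0.10 for Rap1 and Reb1, so the numbers were not taken to pair the samples. Without the free MNase library, a setting chosen after seeing the data, 31, 31 and 24 were called.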
